A study of Homo sapiens with 18 samples.

Results

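Ribosome biogenesis factors, the proteins that transcribe, modify, cut and assemble ribosomal RNA in the nucleolus, were followed at the RNA level in HK-2 cells exposed to CsA. HK-2 cells are an immortalized human cell line made from kidney proximal tubule, so all arrays describe this line. The genes were chosen by function from a list of 37 symbols. A gene was analysed where at least 1 probe set named that gene alone, and its brightest probe set was used. This gave 32 genes, of 10717 genes tested on the array, and all 32 passed the filter on low values (a highest group mean of at least 4). NOP56, DKC1 and BOP1 had only probe sets that name several genes, and GNL3 and DDX18 had none named here, so these 5 genes were not analysed here.

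Cells were seeded a day before treatment in a defined medium with EGF, hydrocortisone, insulin and transferrin, and were treated close to confluence. They received CsA, the usual abbreviation of cyclosporin A, or the vehicle (control) for 12, 24 or 48 h. Each of the 6 groups had 3 biological replicates numbered 1 to 3, which gave 18 arrays. The labels used here give no dose of CsA, so all values refer to a single unstated exposure. The wider study looked for expression signatures of toxicity among several compounds. The comparisons here ask whether CsA, time in culture or replicate moved these genes.

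Making a ribosome starts when RNA polymerase I transcribes the long precursor of the ribosomal RNAs. Small nucleolar RNA-protein particles (snoRNPs) then guide its chemical modification, the small subunit processome folds and cuts the 5′ part into the 40S subunit, and a separate set of factors builds the 60S subunit. The pathway is costly and tied to growth, and the transcription factor MYC with its partner MAX binds the E-box CACGTG in many of its promoters.

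Deposited values were log2 signals in which a difference of 1 is a doubling. The median of an array was 2.858 to 2.924, and 38.2% to 39.1% of its probe sets had a value of 4 or more. Values of different probe sets are not comparable as levels of different genes, so each gene was compared only with itself. In the check of cell type all 5 listed epithelial markers reached 4. Of 8 proximal tubule markers DPP4 alone reached 4, and the others, such as LRP2, CUBN and AQP1, stayed under 4. Of 6 fibroblast markers COL1A1, COL3A1, DCN and LUM reached 4, and none of 5 endothelial or of 3 measured leukocyte markers did.

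Promoters of the members were searched for the E-box because the members moved together between replicates, as the values further on show. Whether the E-box goes with that movement was not tested. RefSeq promoter windows (assembly GRCh38.p14, 250 bases before to 50 after the transcription start, 300 in all) were available for 27 of the 32 genes. CACGTG, which reads the same on both strands, was present in 10 of these 27 windows (37.0%), against 8.77% of the windows of all 27305 genes with one and 13.3% of the 8884 with one among the genes tested. The ETS site CCGGAAGT, searched on both strands, was in 6 windows (22.2%), against 4.95% and 10.6%, and neither motif contains the other. The 10 genes were BYSL, DDX21, FBL, LTV1, MYBBP1A, NOP2, NOP14, PES1, RRP9 and WDR43. Shown are stretches of 54 bases, 5′ to 3′ on the strand of the gene, for the 6 genes whose stretch reached no more than 30 bases into the transcript, with the E-box in capitals.
FBL: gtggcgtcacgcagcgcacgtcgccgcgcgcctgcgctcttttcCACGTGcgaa
RRP9: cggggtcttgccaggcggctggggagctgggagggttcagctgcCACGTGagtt
NOP14: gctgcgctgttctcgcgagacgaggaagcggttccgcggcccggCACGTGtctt
WDR43: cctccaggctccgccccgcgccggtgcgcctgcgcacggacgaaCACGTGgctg
PES1: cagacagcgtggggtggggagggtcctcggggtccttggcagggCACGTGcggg
DDX21: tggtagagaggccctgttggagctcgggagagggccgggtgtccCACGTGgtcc
These lie at chr19:39846364-39846417 (FBL, minus strand), chr3:51941900-51941953 (RRP9, minus), chr4:2963382-2963435 (NOP14, minus), chr2:28894626-28894679 (WDR43, plus), chr22:30591888-30591941 (PES1, minus) and chr10:68956572-68956625 (DDX21, plus). In FBL, WDR43, PES1 and NOP14 the E-box began 7, 4, 14 and 16 bases into the transcript, counting its first base as 1. In RRP9 and DDX21 it began 5 and 31 bases before it. A match describes these letters only, and no binding was measured.

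CsA differences in these transcripts were small, and without the replicate block described next none passed the test across all genes. By limma with Benjamini-Hochberg adjustment over all genes, 0 of 32 members passed at 12 h, 24 h or 48 h or in the average over the times. The backgrounds were 0.0% of genes tested at 12 h, 0.0% at 24 h, 0.439% at 48 h and 0.084% in the average, so the members' counts are near the background. At an unadjusted p under 0.05 limma gave 0, 0, 2 and 1 members, against 0.914%, 3.79%, 16% and 12.2% of genes tested.

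A limma fit that keeps the replicate number as a block called more genes, 10.8% at 48 h and 4.61% in the average, and is given beside each result that it changes. It called 0 members at 12 h (background 0.0%) and 0 at 24 h (background 0.00933%). At 48 h and in the average it called 1 of 32, FBL. Its counts at an unadjusted p under 0.05 were 0, 0, 2 and 1 members, against 2.42%, 9.41%, 28.1% and 22.6% of genes tested.

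The sizes were small. The largest CsA difference of any member was 0.352 at 12 h (RRP9), 0.302 at 24 h (DDX56), 0.359 at 48 h (FBL) and 0.207 in the average (NOP16), whatever its sign. The 95% interval of the difference lay within a doubling or a halving for 31 members at 12 h, 31 at 24 h, 32 at 48 h and 32 in the average. The exceptions were RRP9 at 12 h, whose interval reached -1.15, and NOP16 at 24 h, whose interval reached -1.07. The members' median difference was -0.10 at 12 h (24 of 32 negative, against 53.3% of all genes tested). In the fit without the block it was 0.08 when control replicate 3 of 12 h was left out. That fit kept CsA replicate 3 of 12 h, which exceeded the mean of its other replicates by a median of 0.41. Within replicate pairs 1 and 2 of 12 h the members' medians were 0.0 and -0.06. The members' median difference was -0.05 at 24 h (17 negative, against 52.0%), -0.03 at 48 h (17 negative, against 49.8%), and -0.04 in the average (21 negative, against 51.5%). The medians of single replicate pairs had an SD of 0.10, 0.20 and 0.09 at the 3 times, as large as the medians themselves or larger. No effect of time on the CsA difference was found for any member (limma F test, 0 of 32 called, background 0.0373%). At an unadjusted p under 0.05 it gave 0 members, against 3.47%. With the replicate block 0 were called (background 0.028%) and 1 had an unadjusted p under 0.05, against 10.5%. RNA was measured from whole cultures, so a smaller share of cells with a transcript and less of it per cell cannot be told apart.

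**Figure D1:**
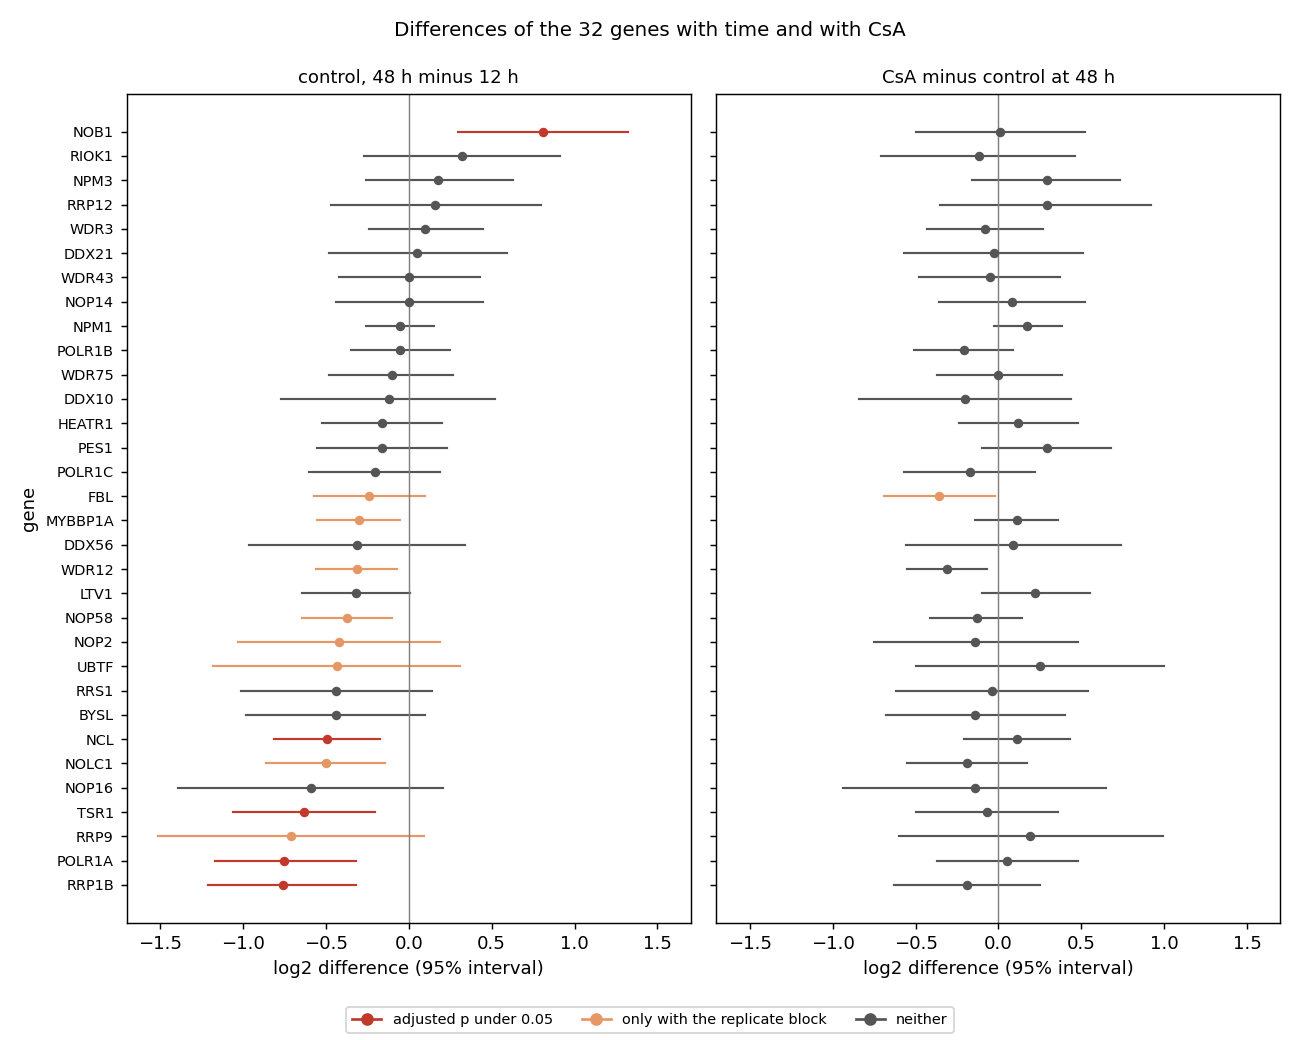
Log2 differences of the 32 genes with 95% intervals of the limma fit, for control arrays at 48 h minus 12 h (left) and CsA minus control at 48 h (right), genes ordered by the left panel. Red marks an adjusted p under 0.05, orange one that passes only with the replicate block: on the left 5 genes are red and 8 orange, and on the right none is red and FBL is orange.

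Fibrillarin (FBL), the methyltransferase of the box C/D snoRNPs that adds 2′-O-methyl groups to ribosomal RNA, had the largest CsA difference at 48 h. Its values in control replicates 1, 2 and 3 were 12.47, 12.44 and 12.55 at 48 h, and in CsA 12.08, 11.98 and 12.33. The CsA arrays all lay below the control arrays. The difference of -0.36 ± 0.16 (SE) did not pass limma over all genes (adjusted p = 0.277) and passed with the replicate block (adjusted p = 0.0221).

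The mean difference was smaller at the earlier times, but a change of the effect with time did not pass (limma F test, adjusted p = 1.0). FBL measured 12.65, 12.61 and 12.91 in control and 12.50, 12.55 and 12.85 in CsA at 12 h, and 12.55, 12.53 and 12.98 against 12.44, 12.41 and 12.80 at 24 h. CsA was lower in each of the 9 replicate pairs, while the groups overlapped at 12 and 24 h. Its average difference was -0.20 ± 0.09 (limma adjusted p = 0.393, and 0.0397 with the block). Both blocked calls depended on single arrays. At 48 h the call was lost without control replicate 1 (adjusted p = 0.0923), CsA replicate 2 (0.106) or CsA replicate 3 (0.0505) of 48 h. A blocked fit restricted to the 48 h arrays did not pass either (0.1). That of the average was lost without any 1 of 14 arrays, with adjusted p up to 0.0994.

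The other snoRNP genes did not pass. NOP58, a core protein of the same particles, had an average CsA difference of -0.11 ± 0.07 (limma adjusted p = 0.615). At 48 h NOP58 measured 11.36, 11.19 and 11.35 in control and 11.25, 11.07 and 11.17 in CsA, which overlapped, though CsA was lower in each of the 9 replicate pairs over the 3 times, by 0.05 to 0.19 in size. With the block the average did not pass (limma adjusted p = 0.253). RRP9, a protein specific to the U3 snoRNP, differed by -0.35 ± 0.37 at 12 h and 0.19 ± 0.37 at 48 h. NOLC1, the chaperone that carries snoRNPs through the nucleus, had an average difference of -0.13 ± 0.10 (limma adjusted p = 0.664). NOLC1 measured 11.66, 11.70 and 11.52 in control and 11.54, 11.53 and 11.22 in CsA at 48 h, with the lowest value in CsA replicate 3. Against -0.19 for this probe set, its dimmer probe sets gave -0.06 and 0.04 at 48 h.

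Subunits and cofactors of RNA polymerase I did not pass at any time. POLR1A, the catalytic subunit, measured 6.04, 6.08 and 6.76 in control and 6.01, 6.00 and 6.09 in CsA at 12 h. Control replicate 3 alone stood high, and the difference was -0.25 ± 0.20 (limma adjusted p = 1.0). POLR1B, the next largest subunit, measured 8.99, 8.81 and 8.69 in control and 8.73, 8.55 and 8.58 in CsA at 48 h. These ranges overlapped between 8.69 and 8.73, and the difference was -0.21 ± 0.14 (limma adjusted p = 0.53). POLR1C, a subunit shared with RNA polymerase III, differed by -0.17 ± 0.18 at 48 h, UBTF, which opens the ribosomal DNA promoter, by 0.25 ± 0.35, and MYBBP1A, a nucleolar protein that binds MYB, by 0.11 ± 0.12.

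The 6 genes of the small subunit processome had average CsA differences from -0.08 to 0.05. The highest of them at 12 h were those of WDR75 and WDR3, WD-repeat proteins of this particle. WDR75 measured 9.76, 9.88 and 10.36 in control and 9.96, 9.90 and 10.37 in CsA at 12 h. WDR3 measured 8.27, 8.38 and 8.91 in control and 8.46, 8.48 and 8.79 in CsA at 12 h. In both genes the 2 groups overlapped and replicate 3 was the highest array of its group, and the differences were 0.08 ± 0.18 and 0.06 ± 0.16 (limma adjusted p = 1.0 for each). DDX10, an RNA helicase, measured 7.15, 6.93 and 8.13 in control and 7.36, 7.76 and 7.89 in CsA at 24 h. The spread of its control arrays exceeded its difference of 0.27 ± 0.30. HEATR1, a large scaffold of the particle, ran from 9.75 to 10.25 in control and from 10.00 to 10.31 in CsA at 48 h, and had an average difference of 0.05 ± 0.10. NOP14 differed by 0.08 ± 0.21 and WDR43 by -0.05 ± 0.20 at 48 h.

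Late 40S factors showed no shared direction under CsA. NOB1, the endonuclease that makes the final cut of 18S ribosomal RNA, measured 9.80, 9.87 and 9.70 in control and 10.15, 10.57 and 9.51 in CsA at 24 h. Replicates 1 and 2 were higher in CsA and replicate 3 was lower, and the difference was 0.29 ± 0.24 (limma adjusted p = 0.999). TSR1, a GTPase-like assembly factor, had an average difference of -0.13 ± 0.12, RIOK1, an atypical kinase of the late pre-40S particle, of -0.04 ± 0.16, and BYSL, which acts in 40S assembly and export, of -0.10 ± 0.15. LTV1, a factor released before the subunit is finished, measured 8.82, 8.90 and 8.75 in control and 8.96, 9.20 and 8.97 in CsA at 48 h. All LTV1 values in CsA lay above all control values, but the difference of 0.22 ± 0.15 did not pass (limma adjusted p = 0.543). RRP12, which takes part in export of both subunits, differed by 0.29 ± 0.30 at 48 h.

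In the group that builds the 60S subunit, WDR12 and PES1 belong to the same trimer, PeBoW, whose other member is BOP1. Their values went opposite ways at 48 h. WDR12 measured 9.38, 9.44 and 9.64 in control and 9.13, 9.09 and 9.32 in CsA, and all CsA arrays were lower. Its difference of -0.31 ± 0.11 did not pass (limma adjusted p = 0.199, and 0.0587 with the block). Dimmer probe sets of WDR12 gave smaller differences at 48 h (-0.05 and -0.17). PES1 measured 8.67, 9.05 and 8.90 in control and 8.87, 9.36 and 9.25 in CsA at 48 h. It was higher with CsA within each replicate pair, the groups overlapped, and the difference was 0.29 ± 0.18 (limma adjusted p = 0.498). No test compared the 2 genes. At 24 h PES1 measured 8.93, 8.85 and 9.23 in control and 8.74, 8.81 and 8.90 in CsA, a difference of -0.19 ± 0.18.

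In RRS1 and DDX56, also of the 60S group, replicate 3 stood above the mean of the other replicates in control and CsA at 12 and 24 h. So it did in NOP2, NOP16, PES1 and RRP1B of this group, and many other members shared it, as shown further on. RRS1, which brings 5S RNA and its proteins into the particle, measured 9.31, 9.55 and 10.21 in control and 9.28, 9.06 and 9.76 in CsA at 12 h. Replicate 3 was the highest in both groups, and the difference was -0.32 ± 0.27 (limma adjusted p = 1.0). At 48 h replicate 3 of RRS1 lay below the mean of the others, by -0.26 in control and -0.35 in CsA. DDX56, a nucleolar helicase, measured 8.57, 8.27 and 9.16 in control and 8.20, 8.16 and 8.73 in CsA at 24 h. Its difference of -0.30 ± 0.30 equalled its SE, and another probe set of DDX56 had the opposite sign (0.18). NOP16, a 60S factor known as a MYC target, had the largest average, -0.21 ± 0.21. NOP2, which methylates 28S ribosomal RNA, differed by -0.14 ± 0.29 and RRP1B, a nucleolar protein of the pre-60S particles, by -0.19 ± 0.21 at 48 h.

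Among the abundant nucleolar proteins, nucleophosmin (NPM1), a histone and ribosome chaperone, measured 14.87, 14.83 and 14.82 in control and 15.00, 15.12 and 14.92 in CsA at 48 h. All CsA arrays were above all control arrays, by 0.17 ± 0.10 (limma adjusted p = 0.412). Nucleolin (NCL), which binds the precursor RNA, differed by 0.11 ± 0.15 at 48 h, and DDX21, a helicase that couples polymerase I and processing, by -0.03 ± 0.25. NPM3, a relative of NPM1, differed by 0.29 ± 0.21.

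Counted over all members, CsA and control arrays did not overlap for 0 members at 12 h, against 6.35% of genes tested, and for 0 at 24 h, against 9.69%. At 48 h they did not overlap for 5 members (LTV1, NPM1, FBL, NOP16 and WDR12), against 15.0%. The 2 higher ones compare with 8.25% of genes tested and the 3 lower ones with 6.77%, and these shares are near the background.

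**Figure D2:**
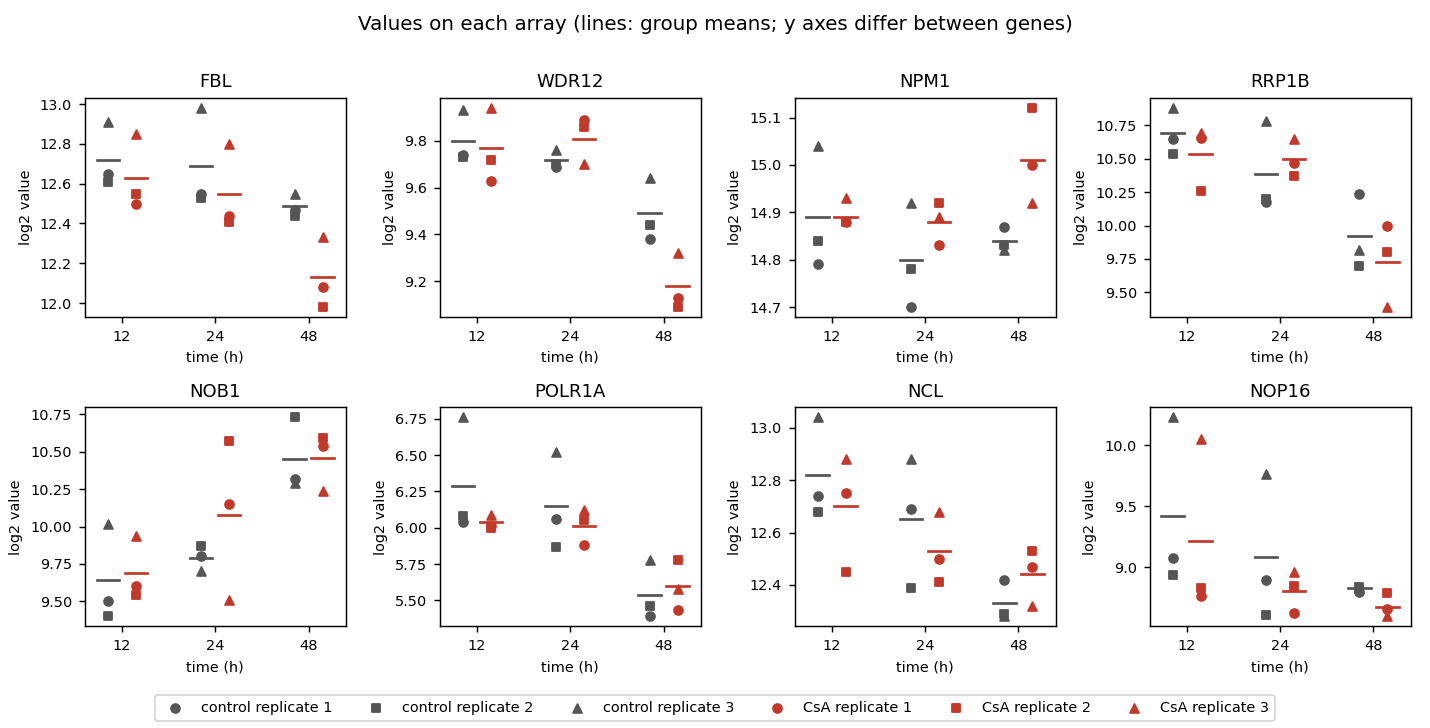
Log2 values on each array for 8 genes, by time (h), control in grey and CsA in red, with circles, squares and triangles for replicates 1, 2 and 3 and lines for group means. At 48 h the CsA values of FBL and WDR12 lie below and those of NPM1 above the control values, and at 12 h replicate 3 of NOP16 lies more than 1 above the other replicates in both groups.

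CsA differences were not alike between replicate pairs. The median CsA difference was 0.00, -0.06 and -0.19 in pairs 1, 2 and 3 at 12 h. It was 0.01, 0.17 and -0.23 at 24 h, and 0.04, 0.03 and -0.13 at 48 h. Pair 3 was the most negative at every time, with 28, 30 and 22 of 32 members negative, while between 49.3% and 54.4% of all genes tested were negative in that pair. At 24 h pair 2 ran the other way, with 8 of 32 members negative. At 12 h 13 members were lower with CsA in all 3 pairs and 2 were higher, at 24 h 5 and 0, and at 48 h 9 and 8. Over all genes tested 20.6% were lower and 18.9% higher in all pairs at 12 h, 23.3% and 22% at 24 h, and 26.2% and 25.7% at 48 h.

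**Figure D3:**
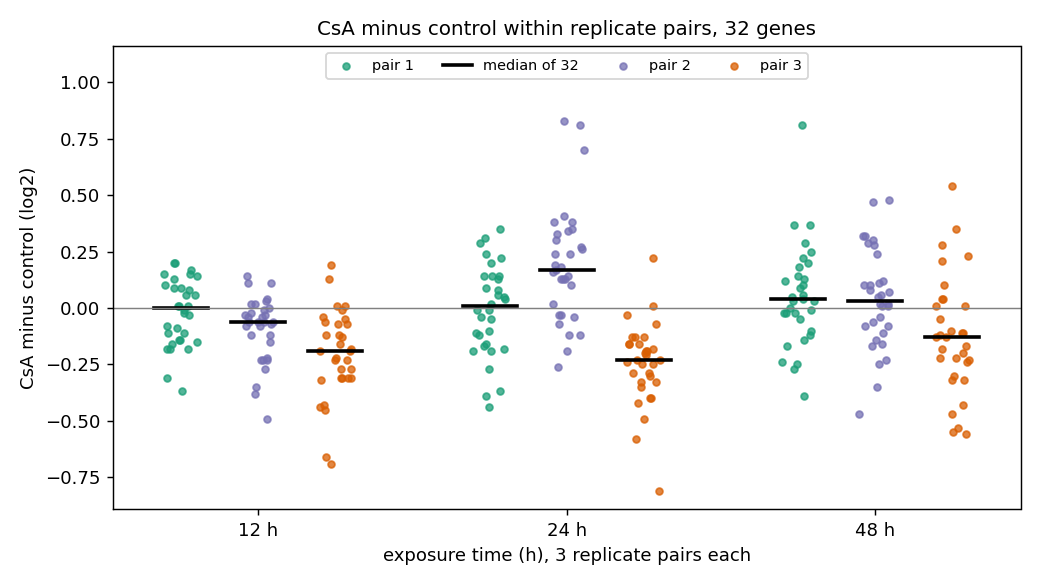
CsA minus control on the log2 scale for each of the 32 genes within replicate pairs 1, 2 and 3 at 12, 24 and 48 h, with black lines at the medians. The medians of pair 3 (-0.19, -0.23 and -0.13) lie below 0 at each time, and those of pairs 1 and 2 lie between -0.06 and 0.17.

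More members passed for time in culture than for CsA. From 12 to 48 h the control arrays showed lower values of 4 members and a higher value of 1 by limma, 5 of 32 called against a background of 17.9% of genes tested. The lower calls compare with a background of 9.37% and the higher with 8.48%. The F test over the 3 times called 1 member, POLR1A, against 14.2%. With the replicate block 13 members were called, against 36.7%, and the F test called 7, against 33.5%. The share of members is near the background without the block. With it the lower calls are 12 of 32 against 18.7%, and the 1 higher call compares with 18%. The members' median was -0.27, with 24 of 32 negative, against 50.5% of all genes tested. It was -0.07 without control replicate 3 of 12 h.

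POLR1A fell by 0.75 ± 0.20 in control arrays from 12 to 48 h (limma adjusted p = 0.0198). It measured 6.04, 6.08 and 6.76 at 12 h, 6.06, 5.87 and 6.52 at 24 h and 5.39, 5.46 and 5.78 at 48 h. No array of 48 h reached any of 12 h. A dimmer probe set of POLR1A gave -0.40 (adjusted p = 0.232).

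RRP1B fell by 0.76 ± 0.21 (limma adjusted p = 0.0215), from 10.65, 10.54 and 10.88 to 10.24, 9.70 and 9.82. Here too the groups were apart, and a dimmer probe set gave -0.63 (adjusted p = 0.0946). NCL fell by 0.49 ± 0.15 (limma adjusted p = 0.0358), from 12.74, 12.68 and 13.04 to 12.42, 12.29 and 12.28. TSR1 fell by 0.63 ± 0.20 (limma adjusted p = 0.042), from 9.80, 9.74 and 10.36 to 9.45, 9.19 and 9.36. Its fall differed between probe sets: a dimmer one gave -0.58 (adjusted p = 0.0579), but the others gave 0.09 and 0.04, and the mean of all probe sets did not pass (-0.27, adjusted p = 0.151).

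NOB1 was the only member called higher in control arrays, by 0.81 ± 0.24 (limma adjusted p = 0.0303), from 9.50, 9.40 and 10.02 at 12 h to 10.32, 10.73 and 10.29 at 48 h. RIOK1 was the next highest, with 7.03, 7.29 and 7.72 at 12 h and 7.69, 7.71 and 7.61 at 48 h. Its groups overlapped and its difference of 0.32 ± 0.27 did not pass (limma adjusted p = 0.455).

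With the replicate block 8 more members were called lower in control arrays. Errors beside these differences are SEs of the fit without the block, and the adjusted p values are those with it. With the block the SEs of RRP9, UBTF and FBL were 0.22, 0.15 and 0.08. NOP58 (-0.37 ± 0.13, limma adjusted p = 0.00953 with the block) was called without any single array. NOLC1 (-0.50 ± 0.17, 0.0231) was lost without control replicate 2 or 3 of 12 h or 3 of 48 h (0.0544 to 0.119). Both dimmer probe sets of NOLC1 fell further in control arrays and passed without the block (-0.79, limma adjusted p = 0.0259, and -0.87, 0.0289). RRP9 (-0.71 ± 0.37, 0.024) was lost without control replicate 1 or 3 of 12 h or 3 of 48 h (0.0588 to 0.134). WDR12 (-0.31 ± 0.11, 0.0223), UBTF (-0.43 ± 0.35, 0.0368), FBL (-0.24 ± 0.16, 0.041), MYBBP1A (-0.30 ± 0.12, 0.0478) and NOP2 (-0.42 ± 0.29, 0.0497) were lost without any of 5, 4, 11, 16 and 13 arrays.

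The 5 calls without the block were sensitive to single arrays. Without control replicate 2 of 48 h all 5 were lost (limma adjusted p between 0.0684 and 0.136), and without control replicate 3 of 12 h all but NOB1 were (between 0.0808 and 0.177). Leaving out control replicate 1 of 12 h ended the calls of RRP1B (0.053), NOB1 (0.0938), NCL (0.0649) and TSR1 (0.0587), and replicate 2 of 12 h that of NOB1 (0.102). Control replicate 1 of 48 h ended those of POLR1A (0.056) and TSR1 (0.0535), and replicate 3 of 48 h those of RRP1B (0.0601), NCL (0.0851) and TSR1 (0.0767). TSR1 was also lost without CsA replicate 1 of 12 h (0.0529), or without CsA replicate 1 or 2 of 24 h (0.0519 and 0.0509) or of 48 h (0.0502 and 0.0512). With the replicate block POLR1A, RRP1B, NCL and TSR1 were called without any single array, and NOB1 was lost without control replicate 1 (0.0605) or 2 (0.0943) of 12 h or 2 of 48 h (0.0633).

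CsA arrays, which share no array with the control arrays, were compared over the same interval. By limma 7 of 32 members were called between 12 and 48 h, against a background of 32.5% of genes tested: 5 lower (background 16.2%) and 2 higher (16.3%). The F test over the 3 times called 4 (FBL, NOLC1, RRP1B and WDR12), against 28.3%. With the block 11 were called, against 48.7%, and the F test called 11, against 47.3%. Of the 11 blocked calls 8 were lower and 3 higher, against 24.4% each way. These shares are near or below the background. The members' median was -0.16, with 22 of 32 negative, against 50.6% of all genes tested. It was -0.02 without CsA replicate 3 of 12 h and -0.01 without replicate 3 at all times.

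WDR12 fell most clearly in CsA arrays, by 0.59 ± 0.11 (limma adjusted p = 0.00137), from 9.63, 9.72 and 9.94 to 9.13, 9.09 and 9.32. Its other, dimmer probe sets gave 0.04 and -0.01 over the same interval, so the fall was seen by 1 of its 3 probe sets. RRP1B fell by 0.80 ± 0.21 (limma adjusted p = 0.00842), from 10.66, 10.26 and 10.69 to 10.00, 9.80 and 9.39, and a dimmer probe set gave -0.28. NOLC1 fell by 0.62 ± 0.17 (limma adjusted p = 0.0112), from 12.00, 11.93 and 12.23 to 11.54, 11.53 and 11.22. Its other probe sets gave -0.61 and -0.60.

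FBL fell by 0.50 ± 0.16 in CsA arrays (limma adjusted p = 0.0238), from 12.50, 12.55 and 12.85 to 12.08, 11.98 and 12.33. NOP58 fell by 0.39 ± 0.13 (limma adjusted p = 0.0301), from 11.54, 11.47 and 11.66 to 11.25, 11.07 and 11.17. NOB1 rose by 0.77 ± 0.24 (limma adjusted p = 0.023), from 9.60, 9.54 and 9.94 to 10.54, 10.59 and 10.24, close to its change in control. NPM3 rose by 0.66 ± 0.21 (limma adjusted p = 0.0251), from 8.22, 8.38 and 7.84 to 8.75, 8.77 and 8.90, and all these groups were apart.

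WDR12 and RRP1B were called without any single array. NOB1 was lost without CsA replicate 1 or 2 of 12 h (limma adjusted p = 0.0686 and 0.0763) or of 48 h (0.0593 and 0.0828). CsA replicate 3 of 12 h ended the calls of FBL (0.105), NOLC1 (0.0507), NPM3 (0.112) and NOP58 (0.103), and replicate 1 of 12 h that of NOP58 (0.0651). FBL was also lost without CsA replicate 1 or 2 of 48 h (0.0596 and 0.0983), and NPM3 and NOP58 without replicate 2 (0.0601 and 0.108) or 3 (0.0711 and 0.0612) of 48 h. With the block the arrays that ended a call were CsA replicate 1 or 2 of 12 h or 1 of 48 h for NOB1 (0.0518, 0.0844 and 0.0546), and CsA replicate 3 of 12 or 48 h for NPM3 (0.0768 and 0.0555). The block also called falls of NOP2 (0.00471), TSR1 (0.0195) and POLR1A (0.0256) and a rise of RRP12 (0.029). For TSR1 the chosen probe set gave -0.46, a dimmer one -0.58, and the others the opposite sign (0.07 and 0.12). The other probe set of POLR1A gave -0.12 against -0.44, and that of RRP12 0.47 against 0.72.

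NOB1 and RRP1B were called in both time courses, 40% of the control list and 28.6% of the CsA list. Over all genes tested 87.2% of the control calls and 47.9% of the CsA calls were shared. All 10 members called in either had the same sign in both, as did 98.5% of all genes called in either. With the block 9 were shared, 69.2% of the control list and 81.8% of the CsA list, against 82.9% and 62.5% over all genes: FBL, NOB1, NOLC1, NOP2, NOP58, POLR1A, RRP1B, TSR1 and WDR12. Same-numbered arrays varied together across all groups, so the courses are not independent.

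By role, in control arrays the 7 60S genes were all negative with a median of -0.42, the 5 RNA polymerase I genes all negative with -0.30, and the 3 box C/D and U3 genes all negative with -0.37. These signs are those of the brightest probe sets. POLR1B gave -0.05, and its dimmer probe sets 0.24, -0.03 and 0.13. Those of WDR12 gave 0.26 and 0.04, and of TSR1 in the late 40S group 2 were also positive. The 6 processome genes had a median of -0.05 with 3 negative, and the 6 late 40S genes -0.08 with 3 negative. The 4 abundant nucleolar proteins had a median of 0.00 with 2 negative. In CsA arrays the same medians were -0.53, -0.26, -0.39, -0.03, 0.21 and 0.15. The 60S median was uneven between replicates: -0.31, -0.07 and -0.88 in control replicates 1, 2 and 3, where 7, 5 and 7 of 7 genes were negative, and -0.16, -0.04 and -0.94 in CsA, where 7, 4 and 7 were. No test compared the roles with each other. Control arrays of 48 and 12 h did not overlap for 11 members (34.9% of genes tested), 10 of them lower (background 18.3%) and 1 higher (16.5%). CsA arrays did not overlap for 12 (45.0%), 9 of them lower (22.5%) and 3 higher (22.5%).

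Members shared a difference between replicates. In control arrays at 12 h, replicate 3 exceeded the mean of replicates 1 and 2 by a median of 0.56 over the 32 members, and only NPM3 was lower. Over all genes tested the median was -0.02 with 51.8% lower. Replicate 3 stood apart there too, in both directions. The SD of its difference over all genes tested was 0.75, against 0.23 for replicate 1 minus replicate 2, and 0.32 over the members. The members' excess was 0.42 at 24 h (2 of 32 lower) and 0.09 at 48 h (10 lower). In CsA arrays it was 0.41, 0.14 and -0.06, with 2, 12 and 22 members lower. Replicates 1 and 2 differed from each other by a median of at most 0.19 in size in any group. With 1 such array in a group there is no test of this difference.

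**Figure D4:**
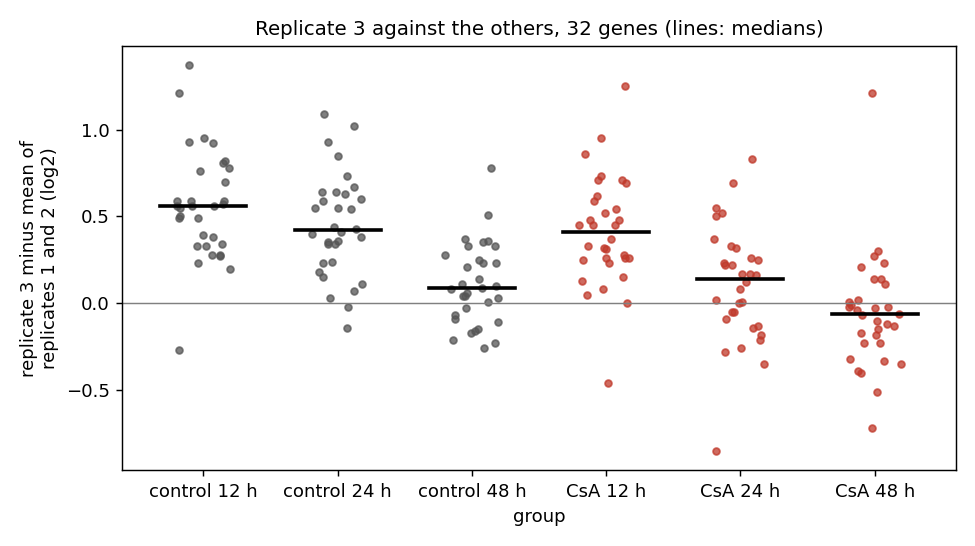
Replicate 3 minus the mean of replicates 1 and 2 on the log2 scale for the 32 genes in each group, control in grey and CsA in red, with black lines at the medians. The medians go from 0.56 at 12 h to 0.09 at 48 h in control and from 0.41 to -0.06 in CsA.

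The largest excesses in control at 12 h were those of RRP9 (1.37), NOP16 (1.21), NOP2 (0.95), DDX21 (0.93) and BYSL (0.92). RRP9 measured 5.55, 5.16 and 6.72, NOP16 9.08, 8.94 and 10.23, and DDX21 11.68, 11.61 and 12.57 in replicates 1, 2 and 3. Replicate 3 stood apart in each. In the control arrays of 48 h the same genes measured 4.98, 5.15 and 5.16, 8.80, 8.84 and 8.83, and 12.00, 11.92 and 12.10, and the excess was at most 0.14. At 48 h it was 0.06 for BYSL and 0.25 for NOP2 in control. NPM3 went the other way, with 8.41, 8.44 and 8.15 in control at 12 h. UBTF kept its excess: it was 0.39, 0.60 and 0.78 in control and 0.48, 0.83 and 1.21 in CsA at 12, 24 and 48 h.

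The members' change with time was also larger in replicate 3. From 12 to 48 h the members' median was -0.45 in control replicate 3, with 30 of 32 negative, and -0.18 and -0.07 in replicates 1 and 2. In CsA arrays it was -0.51 in replicate 3, with 28 negative, and -0.05 and 0.08 in replicates 1 and 2. Over all genes tested these medians lay between -0.04 and 0.02. The summed level of the 5 epithelial markers moved with replicate too: it was 47.45 to 52.58 on the 6 arrays of replicate 3 and 55.89 to 58.61 on the other 12. The sum of the 6 fibroblast markers was 34.24 to 37.93 and 31.45 to 39.53. As a sign of RNA quality, ACTB probes at the 3′ end exceeded those at the 5′ end by 0.776 to 0.86 in replicate 3 and by 0.675 to 1.207 in the others. GAPDH gave -0.141 to -0.112 and -0.166 to 0.035. The part of these in the result was not tested.

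**Figure D5:**
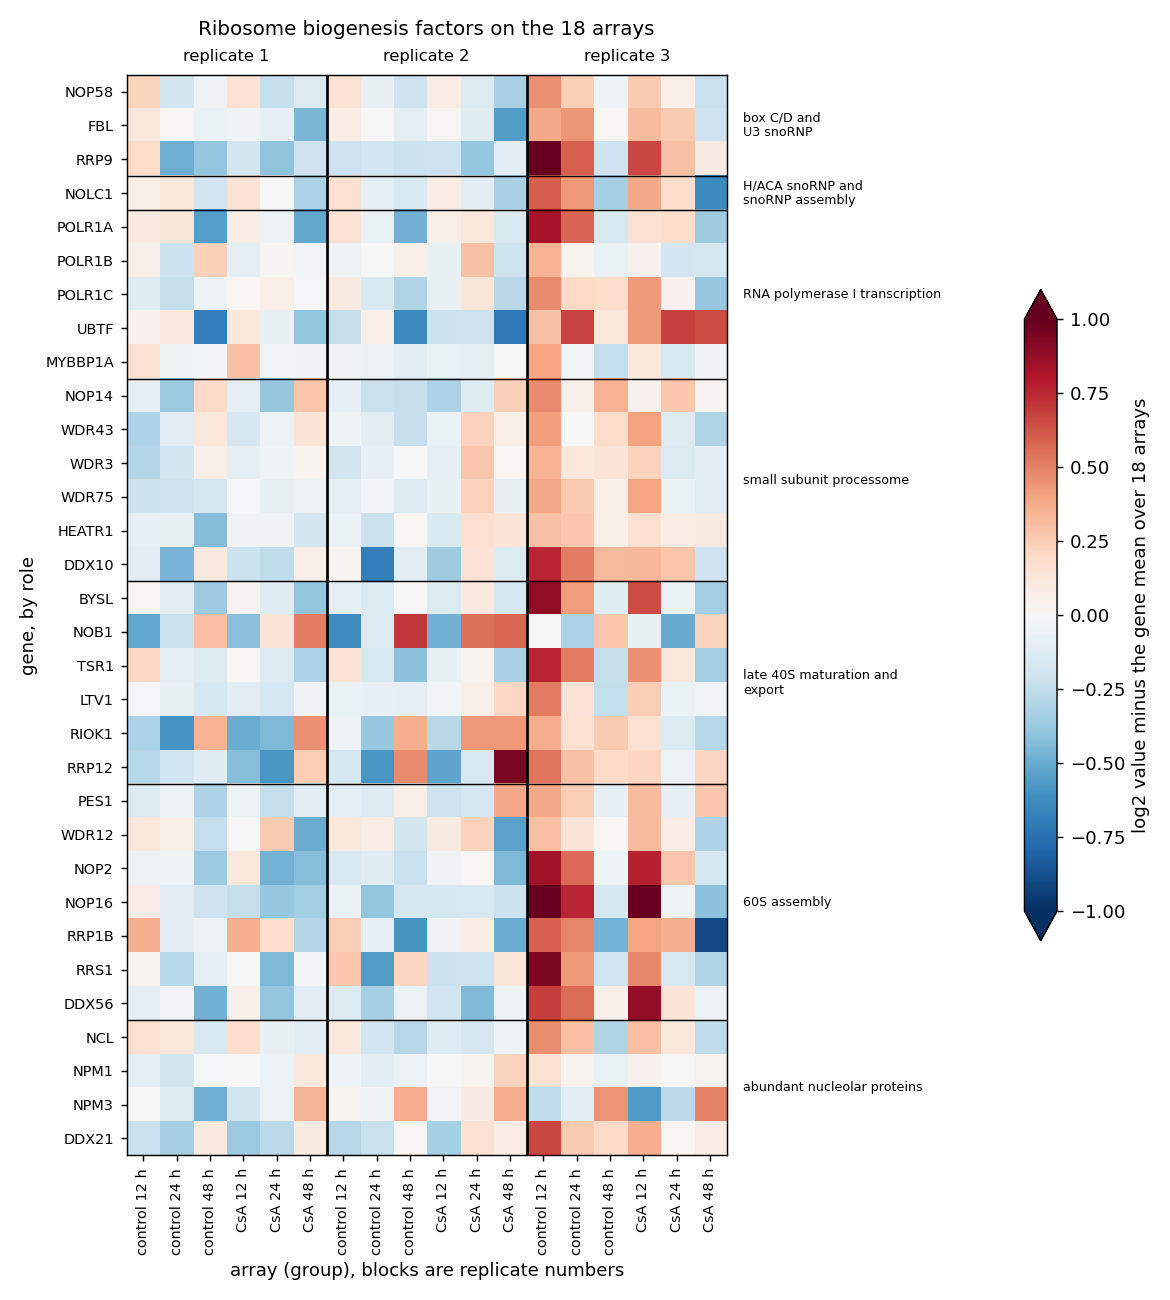
Log2 value minus the gene's mean over 18 arrays (red higher, blue lower, colours end at 1 and -1) for the 32 genes, in rows by role, with arrays in columns by replicate number and, within it, control then CsA at 12, 24 and 48 h. Replicate 3 at 12 h is red in nearly all rows (31 of 32 genes above the other replicates in control), and this fades by 48 h.

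Other genes of the pathway were set beside the members, from lists drawn up by function. Of 78 other nucleolar assembly factors, 78 were higher in control replicate 3 at 12 h than the mean of replicates 1 and 2, by a median of 0.39, and 51 were at 48 h (0.13). Of 13 RNA exosome genes 12 were higher at 12 h (0.43) and 12 at 48 h (0.36) in control, while in CsA 11 were at 12 h (0.29) and 6 at 48 h (-0.01). Of 30 other RNA polymerase I and III genes 23 were higher in control at 12 h (0.23) and 19 at 48 h (0.07). Cytosolic ribosomal proteins did not share this: 15 of 52 were higher, with a median of -0.04. Of 9 genes of the MYC network 4 were higher, with a median of -0.02. The E-box was found in 31 of 68 windows of the other nucleolar factors (45.6%) and in 3 of 46 of ribosomal proteins (6.52%). It was in 7 of 25 of the RNA polymerase list (28.0%), 1 of 11 exosome genes (9.09%) and 2 of 8 of the MYC network (25.0%).

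Within the members, those with an E-box had a median change from 12 to 48 h in control of -0.27 (n = 10) and those without of -0.16 (n = 17), with ranges from -0.71 to 0.05 and from -0.75 to 0.81. These ranges overlapped. Their average CsA medians were -0.03 and -0.04.

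Under CsA none of these 5 lists had a gene called by limma at 12, 24 or 48 h or in the average. At 48 h 4 of 78 other nucleolar factors, 1 of 52 ribosomal proteins, 2 of 30 polymerase genes, 2 of 9 MYC network genes and 1 of 13 exosome genes had an unadjusted p under 0.05. Of all genes tested 16% had one, and the block called 10.8% at 48 h and 4.61% in the average. With the block DDX49, a nucleolar helicase, was called at 48 h (0.81 ± 0.20, limma adjusted p = 0.07, and 0.0205 with the block). So were MAX (0.39 ± 0.11, 0.102 and 0.0189), MGA, a large MAX partner (-0.44 ± 0.21, 0.338 and 0.0344), and EXOSC1 (0.48 ± 0.25, 0.37 and 0.0361). In a blocked fit of the 48 h arrays alone DDX49 passed (limma adjusted p = 0.0312), and MAX (0.094), MGA (0.0766) and EXOSC1 (0.0522) did not. MYC itself differed by 0.05 ± 0.14, 0.22 ± 0.14 and -0.44 ± 0.14 at 12, 24 and 48 h. The last did not pass (limma adjusted p = 0.154, and 0.0628 with the block). At 48 h SURF6, a nucleolar matrix protein, differed by 0.37 ± 0.13, FAU, the fusion precursor of a ribosomal protein, by 0.37 ± 0.15, and RPL11, a 60S protein, by 0.19 ± 0.10. The RNA polymerase III subunits POLR3D and POLR3K differed by 0.44 ± 0.19 and -0.57 ± 0.26, and the exosome subunit EXOSC9 by -0.44 ± 0.18. The MAX and MLX partners MNT, MXD1, MXD3, MXI1, MLX and MLXIP differed by 0.19 ± 0.10, 0.20 ± 0.36, -0.30 ± 0.15, 0.22 ± 0.20, 0.08 ± 0.18 and 0.02 ± 0.21. None of these passed in either fit. In the average the block called POLR3C (0.27 ± 0.11, 0.329 and 0.0464) and EXOSC2 (-0.28 ± 0.13, 0.381 and 0.0397).

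Over time in control arrays, limma called 9 of 78 other nucleolar factors, 7 lower and 2 higher, and with the block 23, of them 20 lower. Their median was -0.20 with 58 negative. As background for all lists here, limma called 17.9% of genes tested, 9.37% lower and 8.48% higher. With the block it called 36.7%, 18.7% lower and 18% higher. Of the 52 ribosomal proteins 0 were called, with 6 at an unadjusted p under 0.05 (32.4% of all genes tested had one), and with the block 6, all higher. Their median was 0.08 with 12 negative. Of 30 polymerase genes 3 were higher and 3 lower, and of 13 exosome genes 2 were higher, EXOSC5 (0.97 ± 0.16) and EXOSC6 (2.50 ± 0.28), and 2 lower, EXOSC2 (-0.75 ± 0.22) and EXOSC9 (-0.62 ± 0.18). In the MYC network 4 of 9 rose: MAX (0.93 ± 0.11, limma adjusted p = 0.00026) and its repressor partners MNT (0.77 ± 0.10, 0.000331) and MXI1 (1.01 ± 0.20, 0.00533), and MYC (0.44 ± 0.14, 0.0478). Only with the block, limma also called rises of MLX (0.50 ± 0.18, adjusted p = 0.0263), MGA (0.36 ± 0.21, 0.0286) and EXOSC1 (0.52 ± 0.25, 0.00763). It likewise called falls of MXD3 (-0.37 ± 0.15, 0.0364), EXOSC3 (-0.68 ± 0.23, 0.00668) and EXOSC10 (-0.44 ± 0.22, 0.00149). In CsA arrays over the same interval the other nucleolar factors had 10 lower and 6 higher calls, and the ribosomal proteins 0, with 4 at an unadjusted p under 0.05 and 5 called with the block, all higher (RPL3, RPL10A, RPL12, RPL30 and RPS9). The backgrounds in these arrays were 16.2% lower and 16.3% higher, and 24.4% higher with the block. EXOSC1 (0.84 ± 0.25), EXOSC5 (1.03 ± 0.16) and EXOSC6 (2.83 ± 0.28) rose, and EXOSC2 (-0.83 ± 0.22) and EXOSC9 (-0.88 ± 0.18) fell. EXOSC10 was called lower there only with the block (-0.57 ± 0.22, SE with the block 0.08, limma adjusted p = 0.000117 with the block). MAX rose by 1.31 ± 0.11, MNT by 0.84 ± 0.10, MXI1 by 1.19 ± 0.20 and MLX by 0.60 ± 0.18, MXD3 fell by 0.59 ± 0.15, and MYC differed by -0.05 ± 0.14 (limma adjusted p = 0.817). The difference of MYC between the courses did not pass limma in either fit.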

How the data were processed

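RNA of 18 HK-2 cultures was measured on Affymetrix arrays. The deposited table held 54675 probe sets, with GCRMA values per the submitters' processing notes. They were taken as log2 from their range, and the authors' deposited log2 values were used as they stand. GCRMA corrects background, normalizes between arrays and compresses differences near background. Which arrays entered that step together was not given in the sources used here. Columns left unused numbered 0.

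Of the probe sets, GEO's platform annotation gave 41091 a single symbol and 1801 several. There were 11721 with no name here, and 62 controls. Updating through RefSeq identifiers changed 0 symbols (54 unmatched). The brightest single-symbol probe set stood for a gene, and 10717 genes with a highest group mean of at least 4 were tested.

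Limma 3.58.1 (lmFit and eBayes, R 4.3.3) fitted 1 model with a term per group to all 18 arrays, with Benjamini-Hochberg adjustment and a threshold of 0.05. Errors beside differences are SEs of that fit, also where the adjusted p beside them is that of the replicate block. Tables and figures used Python 3.11.15, pandas 2.3.3 and matplotlib 3.10.9. On data simulated for CsA against control at 48 h (10717 genes) all changes of 1 and of 2 on the log2 scale were recovered (100%), with 6 false calls. The simulated noise was equal for all genes and held no replicate effect, and both changes exceed every CsA difference of a member. The simulation checks the fit only and gives no measure of power for differences as small as those seen here.

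Groups share replicate numbers. Deviations from group means correlated between same-numbered arrays at 0.277 or more, and at 0.546 to 0.942 within a time. For 18 of 18 arrays the nearest array in other groups shared its number, and number held 71.5% of the sum of squares within groups (48.5% over the members). On that basis the numbers count as pairs (the labels do not state a pairing), and a blocked fit is printed where it changes a call.

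Array values are given for the members with the smallest p in each direction per comparison and role. From each other list, the 2 genes with the smallest p at 48 h, called genes where there were 5 or fewer, and the MYC network are named. The values of LTV1, NOLC1, RRP9, NOP16, DDX21 and NPM3 that fall outside that rule were chosen after they were seen. Members, lists and tests were chosen with earlier results of these data known. Alternatives tried were median centring, quantile normalization, other filters, the mean of all probe sets, an intensity trend with robust estimation, other probe sets, the block, and leaving out each array or replicate number. The number of arrays limits the precision.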

Additional observations from a re-analysis of the deposited data

Results flagged for a closer look

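In 3 members every replicate pair moved one way at one time and the opposite way at another. How many of all genes tested meet this rule was not counted, so these members have no background to compare with. One sign in all pairs at a single time was common among all genes tested, as the shares given with the replicate pairs show. The rule counts signs only, and the lowest 48 h pair of NPM3 and of RRP12 was near 0. CsA minus control of NPM3 averaged 0.29 at 48 h (0.01 to 0.81 over 3 pairs) and -0.18 at 12 h (-0.31 to -0.06). PES1 averaged 0.29 at 48 h (0.20 to 0.35) and -0.19 at 24 h (-0.33 to -0.04). RRP12 averaged 0.29 at 48 h (0.01 to 0.48) and -0.27 at 12 h (-0.35 to -0.14). The limma F test of a CsA effect that differs between times called none of them (unadjusted p = 0.301, 0.208 and 0.415, each with adjusted p = 1.0).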

How the results depend on the processing

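No member passed for CsA against control at 12 or 24 h or for the effect by time under any alternative run, including every array left out. At 48 h and in the average the replicate block gave 1 (FBL). With the block and 1 array left out these counts were 0 to 2 (1 or 2 where any passed) and 0 to 1. With control replicate 3 of 12 h left out the members' median at 12 h was 0.08 (-0.0 with the block), and with CsA replicate 3 of 12 h left out -0.20, and at 48 h it was -0.13 to 0.13 with the block and 1 array left out.

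For control arrays over time (F test, 1 called) the count was 2 with arrays centred, with a filter at 6, with an intensity trend and robust estimation, and with the mean of probe sets, 0 with no filter and 7 with the block. It was 0 to 3 with an array or a replicate number left out, and 2, 3, 6, 7, 8 or 9 with the block and an array left out. For CsA arrays over time (4 called) it was 1 with the mean of probe sets and 11 with the block, 0 to 5 with arrays or numbers left out, and 7, 8, 9, 10 or 11 with both. Control at 48 against 12 h (5 called) gave 2 with no filter and 13 with the block, 0 to 6 with arrays or numbers left out, and 9, 10, 11 or 12 with both, with a median of -0.07 to -0.32 over the arrays left out, the first without control replicate 3 of 12 h. CsA arrays at 48 against 12 h (7 called) gave 11 with the block, 0 to 13 with arrays or numbers left out, and 11 or 12 with both. Without replicate 1, 2 or 3 the control contrast gave 0, 0 and 6 and the CsA contrast 1, 0 and 13. Apart from the block, the shares of all genes tested under these alternatives are not given here, so the counts show sensitivity only. The cause was not tested.

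Signs reversed in values that passed no test for WDR75 at 12 h without control replicate 1 (-0.05) or CsA replicate 3 (-0.07, and -0.01 with the block), and WDR3 at 12 h with arrays left out (-0.06 to -0.00418, among them -0.04, -0.02 and -0.01). DDX10 at 24 h was -0.01 without replicate 2 (up to 0.63 without control replicate 3 of 24 h), and HEATR1 averaged -0.00454 without control replicate 1 of 48 h. Other probe sets reversed, among other values, DDX56 at 24 h (0.18), and NPM1 (-0.02), WDR12 (0.07) and POLR1B (0.12) in the average. In control arrays over time they reversed WDR12 (0.26 and 0.04), POLR1B (0.24 and 0.13) and DDX21 (-0.04). None of these had passed without the block. For CsA at 48 h other probe sets reversed RRP1B (0.34), UBTF (-0.12), MYBBP1A (-0.07) and POLR1B (0.14). They also reversed NOLC1 (0.04), TSR1 (0.04) and HEATR1 (-0.01), and none of these had passed. Further probe sets of UBTF, POLR1B, NOLC1, TSR1 and HEATR1 kept the sign at 48 h. Other probe sets also reversed values that had passed: WDR12 (0.04) in CsA arrays and TSR1 (0.09 and 0.04) in control arrays over time. TSR1 in CsA arrays, called with the block alone, reversed too (0.07 and 0.12).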
